A study of Homo sapiens with 15 samples.

Results

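The inflammatory chemokines CCL2, CCL7, CXCL1, CXCL2, CXCL3, CXCL5, CXCL6, CXCL8 and CXCL16 were followed by gene symbol through the expression tables of MRC5 and H196 cells. These 9 genes stand among 17138 genes listed in either table. All 9 were listed for MRC5 and 7 for H196, since CCL7 and CXCL6 were not detected there. MRC5 is a human lung fibroblast line, H196 is a non-neuroendocrine (non-NE) small cell lung cancer (SCLC) line, and H69 is a neuroendocrine (NE) SCLC line that served only as a partner and was not sequenced. MRC5 cells were grown alone (MRC5_Mo), with H69 (MRC5_CoH69) or with H196 (MRC5_CoH196), and H196 cells were grown alone (H196_Mo) or with MRC5 (H196_Co), each for 7 days and with 3 libraries per group, 15 in all. The partner was held above the sequenced cells by a porous transwell membrane. MRC5 and H196 were kept in different media when grown alone, so that line, medium and table cannot be told apart. The methods do not name the medium of the co-cultures. Any change of medium therefore cannot be told apart from the partner where a co-culture is compared with a mono-culture. Only this fibroblast line and this non-NE line were measured, and the methods call the replicates of a group parallel without saying whether they were separate cultures, so p-values measure only the spread between these libraries.

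Chemokines are small secreted proteins that draw leukocytes along a gradient. CCL2 and CCL7 act on the receptor CCR2 and mainly recruit monocytes. CXCL1, CXCL2, CXCL3, CXCL5, CXCL6 and CXCL8 carry the Glu-Leu-Arg (ELR) motif, act on CXCR2 and, for CXCL6 and CXCL8, also on CXCR1, and mainly recruit neutrophils. CXCL16 is made as a membrane protein, is shed by ADAM10 and ADAM17, and acts on CXCR6 of T and NK cells. In fibroblasts these genes are known as rapid targets of IL-1 and TNF through NF-κB, with C/EBP and AP-1 factors, and many of their transcripts are short-lived through AU-rich elements.

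In the authors' annotation (GRCh38.p13) the members were all of type mRNA and lay in 3 places. CCL2 (34255218 to 34257203) and CCL7 (34270221 to 34272242) were neighbours on chromosome 17, and CXCL16 lay apart from them on the same chromosome (4733533 to 4739928). The 6 ELR chemokines were all on chromosome 4, with CXCL8 at 73740569 to 73743716, CXCL6 at 73836678 to 73838760, CXCL1 at 73869393 to 73871308, CXCL5 at 73947848 to 74009807, CXCL3 at 74036589 to 74038807 and CXCL2 at 74097040 to 74099196. The span listed for CXCL5 differs from RefSeq, in which the gene starts inside that span, so that the CXCL5 promoter window printed next also lies inside it.

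The RefSeq promoter table (GRCh38.p14) held 7 of the 9 members, without CCL2 and CXCL16. The 150 bases before the start are shown for the CXCL1, CXCL2 and CXCL3 trio, because their levels differed widely in H196, and for CXCL8 and CXCL5, because these differed in opposite directions between the partners of MRC5. Capitals mark matches to GGNNNTTCC, a form of the NF-κB motif, searched on both strands. The windows are chr4:73869243-73869392 (plus strand) for CXCL1, chr4:74099196-74099345 (minus strand) for CXCL2, chr4:74038690-74038839 (minus strand) for CXCL3, chr4:73740419-73740568 (plus strand) for CXCL8 and chr4:73998678-73998827 (minus strand) for CXCL5.
CXCL1: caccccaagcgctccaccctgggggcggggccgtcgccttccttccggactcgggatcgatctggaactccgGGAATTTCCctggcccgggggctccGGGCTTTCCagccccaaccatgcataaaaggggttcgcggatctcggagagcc
CXCL2: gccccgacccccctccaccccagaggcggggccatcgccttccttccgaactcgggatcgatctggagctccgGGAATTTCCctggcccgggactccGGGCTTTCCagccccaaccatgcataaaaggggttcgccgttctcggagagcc
CXCL3: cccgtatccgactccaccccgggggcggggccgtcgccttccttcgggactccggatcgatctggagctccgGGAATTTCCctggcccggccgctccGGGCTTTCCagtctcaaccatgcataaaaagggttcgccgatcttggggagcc
CXCL8: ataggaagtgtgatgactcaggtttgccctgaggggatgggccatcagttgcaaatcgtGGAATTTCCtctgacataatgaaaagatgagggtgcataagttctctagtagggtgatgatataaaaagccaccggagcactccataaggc
CXCL5: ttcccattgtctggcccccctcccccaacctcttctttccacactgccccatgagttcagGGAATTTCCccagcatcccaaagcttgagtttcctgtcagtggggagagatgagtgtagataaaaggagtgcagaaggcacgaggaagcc
Of the 7 members with a promoter, 6 held the motif within 150 bases, the exception being CCL7, whereas 11.1% of 35116 promoters of that length held it. CXCL1, CXCL2 and CXCL3 each held 2 matches, and CXCL5, CXCL6 and CXCL8 each held 1. The letters GGAATTTCC occurred in all 6, starting between 77 and 91 bases before the start. The AP-1 motif TGANTCA, found in 4.17% of promoters, was present in CXCL8, as TGACTCA at 137 bases before the start, and in CCL7. The C/EBP motif TTGCNNAA, found in 5.02% of promoters, was in none of the 7 windows of 150 bases. Within 250 bases, where 9.05% of promoters held it, only CXCL2 had a match, at 188 bases before the start. Looser forms of the motif were not searched. The trio windows were near copies, with 88.7% identity between CXCL1 and CXCL2, 88.1% between CXCL1 and CXCL3 and 86.1% between CXCL2 and CXCL3, as were CXCL5 and CXCL6 at 89.4%. Between CXCL8 and CXCL2 the identity was 42.8%. These matches describe letters only.

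All 15 libraries were of similar depth, with totals of 16073597 to 19170560 counts, so that 3 counts, the most that a count of 0 allows, correspond to 0.157 to 0.187 CPM (counts scaled to library depth). All 8 fibroblast markers, such as COL1A1 and PDGFRB, exceeded 1 CPM in each MRC5 group and 1 of 8 did in H196, where THY1 stayed at 0. Their summed level was 26873 to 29917 CPM in MRC5_Mo, 30766 to 31787 in MRC5_CoH69 and 12804 to 13561 in MRC5_CoH196. A wider set of 195 genes reached 20 CPM in every MRC5 library and stayed below 0.5 CPM in H196_Mo. It summed to 44861 to 48422 CPM in MRC5_Mo, 51701 to 52532 in MRC5_CoH69 and 46114 to 47194 in MRC5_CoH196. This set was chosen for its level in every MRC5 library, MRC5_CoH196 included. All 4 non-NE SCLC markers exceeded 1 CPM in every group, MRC5 included. Of 6 neuroendocrine markers 0 exceeded 1 CPM in MRC5 and 1 did in H196. Of 6 leukocyte and macrophage markers 1 exceeded 1 CPM in every group, with a sum of 73.7 to 82.4 CPM in MRC5_Mo, 58.0 to 70.9 in MRC5_CoH69, 107 to 116 in MRC5_CoH196, 81.1 to 86.8 in H196_Mo and 109 to 117 in H196_Co, while PTPRC was at 0 in MRC5_CoH196 and in both H196 groups. Epithelial and endothelial markers ran from 125 to 273 and from 0.230 to 1.31 CPM. In bulk RNA, fewer cells of a type and less RNA per cell cannot be told apart, and the part of these shifts in the results on chemokines was not tested.

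RNA of the partner could be followed with 94 H196 marker genes, which reached 20 CPM in all H196 libraries but stayed below 0.5 CPM in MRC5_Mo. Their summed level, as a percent of that in H196_Co, was 0.113% to 0.128% in MRC5_Mo, 0.107% to 0.133% in MRC5_CoH69, and 0.686%, 0.795% and 0.307% in MRC5_CoH196 replicates 1, 2 and 3. With the 15 genes of at least 100 CPM, the MRC5_CoH196 libraries were at 0.406%, 0.428% and 0.0449% and the other 6 MRC5 libraries at 0.0151% to 0.0359%. In the reverse direction, the 195 MRC5 genes named above reached 0.0290% to 0.0322% in H196_Mo and 0.0369% to 0.0408% in H196_Co.

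The lines used different chemokines. CCL2, the monocyte chemoattractant, made up 95.5% to 96.9% of the summed FPKM (fragments scaled for gene length and library depth) of the 9 members in MRC5_Mo and MRC5_CoH69, and CXCL2 made up 95.8% to 97.1% in the H196 libraries. In MRC5_CoH196 the CCL2 share was 81.8% to 82.7% and CXCL8 held 13.5% to 14.4%, against 1.51% to 2.32% in the other MRC5 libraries. The summed FPKM of the 6 ELR members was 1.58 to 1.82 in MRC5_Mo, 2.12 to 3.19 in MRC5_CoH69, 5.57 to 6.32 in MRC5_CoH196 and 170 to 205 in H196.

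**Figure D1:**
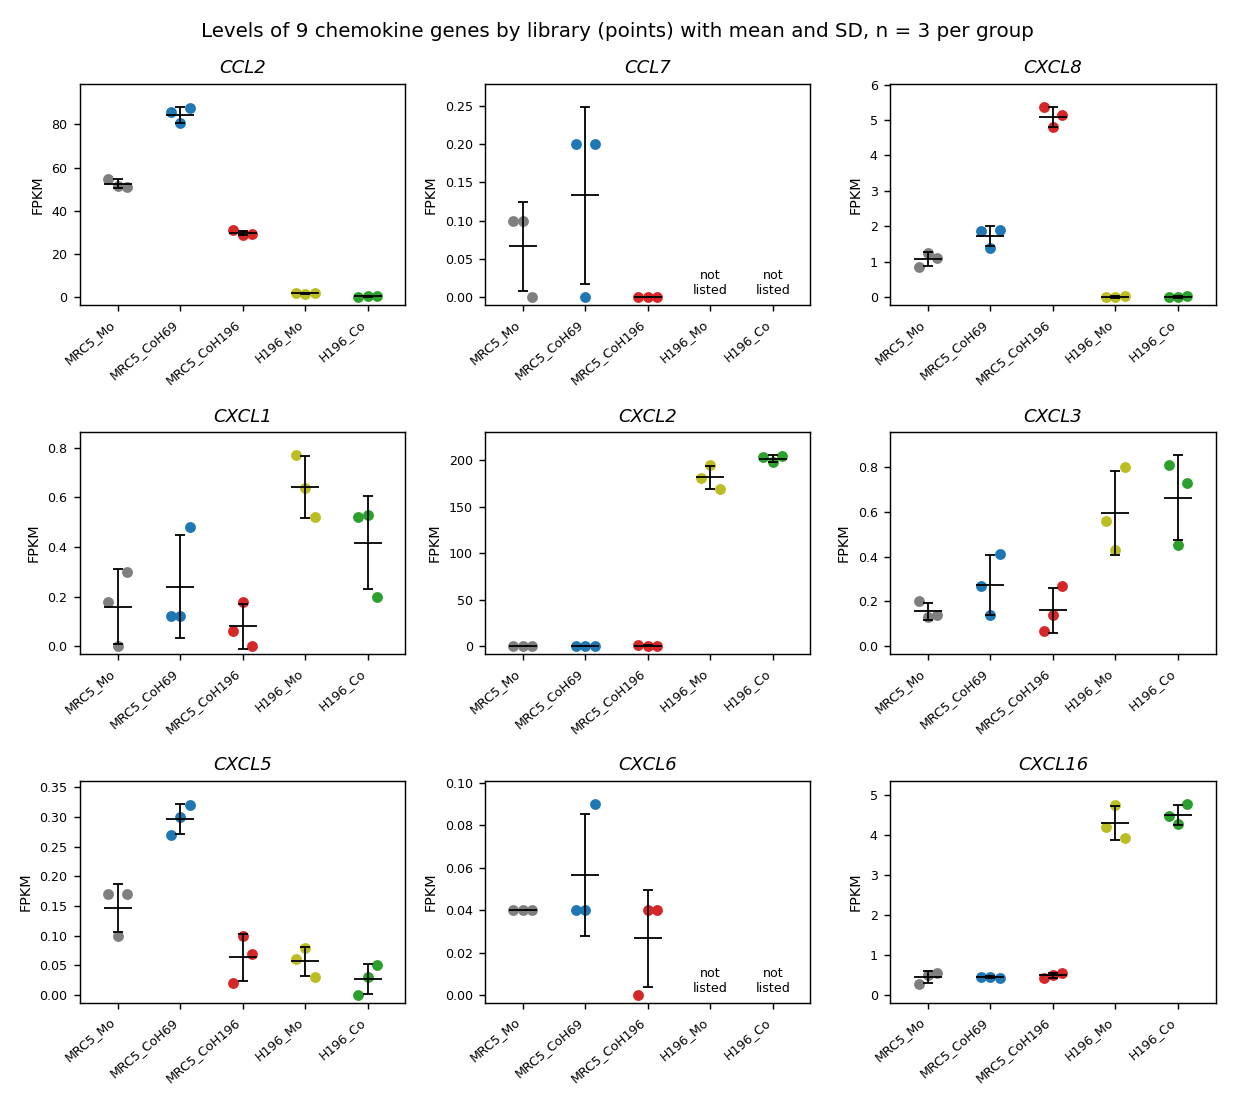
FPKM of each chemokine gene (y axes, linear, own scale per gene) in the 5 groups (x axes), with each library as a point and the mean and SD of 3 libraries as bars. CCL2 was highest in MRC5_CoH69, CXCL8 in MRC5_CoH196, and CXCL2 and CXCL16 in both H196 groups, while CCL7 and CXCL6 were not listed for H196.

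Transcripts of CCL2 were the most abundant of the members in fibroblasts, and they moved in opposite directions with the partner. CCL2 had 476, 444 and 437 counts in MRC5_Mo, 727, 683 and 744 in MRC5_CoH69 and 275, 244 and 255 in MRC5_CoH196. The 3 groups did not overlap, with MRC5_CoH69 highest and MRC5_CoH196 lowest. Mean FPKM was 52.5 ± 2.0 (SD, n = 3) in MRC5_Mo, 84.5 ± 3.7 in MRC5_CoH69 and 29.8 ± 1.0 in MRC5_CoH196. In edgeR's quasi-likelihood test CCL2 rose 1.60-fold with H69 (log2 fold change 0.68, SE 0.06, adjusted p = 2.69e-08) and fell to 0.637 of the mono-culture level with H196 (-0.65, SE 0.07, adjusted p = 7.5e-09). Between the partners the log2 difference was -1.33 (SE 0.07, adjusted p = 3.81e-15). The sum of the 8 fibroblast markers also moved with the partner, and its part in this was not tested.

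CCL2 was also lower in H196 after co-culture, at a far lower level. Its counts were 15, 13 and 17 in H196_Mo and 2, 4 and 5 in H196_Co, groups that did not overlap, and FPKM was 1.93 ± 0.29 and 0.467 ± 0.20 (SD, n = 3). The log2 fold change was -1.93 (SE 0.42, adjusted p = 0.00297, edgeR), and it lay between -2.22 and -1.004 in the 13 alternatives that gave a value. CCL2 passed the count filter of the H196 model only through H196_Mo, where it was higher, so its call in H196 is a description. The order of CCL2 levels was MRC5_CoH69, MRC5_Mo, MRC5_CoH196, H196_Mo and H196_Co. All 3 neighbouring pairs within a line were called as different, the H196 pair with that limit.

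CXCL8, the chief neutrophil chemoattractant of human fibroblasts, rose most with H196. It had 22, 32 and 28 counts in MRC5_Mo, 49, 35 and 48 in MRC5_CoH69 and 140, 120 and 133 in MRC5_CoH196. Every MRC5_CoH196 library was above every other library, and MRC5_CoH69 was above MRC5_Mo by a margin of 3 counts. FPKM was 1.07 ± 0.20, 1.72 ± 0.29 and 5.09 ± 0.29 (SD, n = 3). The rise with H196 was 5.33-fold (log2 2.41, SE 0.16, adjusted p = 1.5e-12), and CXCL8 was 3.30-fold higher with H196 than with H69 (log2 1.72, SE 0.15, adjusted p = 1.91e-10, edgeR).

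The smaller rise of CXCL8 with H69 was less certain. It was 1.62-fold (log2 0.69, SE 0.20, adjusted p = 0.0375, edgeR), and 7 of 15 alternatives did not call it. The adjusted p was 0.131, 0.0601 and 0.107 without MRC5_Mo replicates 1, 2 and 3, and 0.149 and 0.137 without MRC5_CoH69 replicates 1 and 3. DESeq2 gave an adjusted p of 0.0810.

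CXCL8 was almost absent from H196. Counts were 0, 0 and 1 in H196_Mo and again 0, 0 and 1 in H196_Co, so the 1 count seen in each H196 group stood against 120 to 140 in the MRC5_CoH196 libraries. Summed over libraries, the ratio of MRC5_Mo to H196_Mo was 74.1 (95% exact interval 12.9 to 2964), and that of MRC5_CoH196 to H196_Co was 353 (63.0 to 13970). These intervals cover counting error only, since reads carry no molecular identifiers.

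The ratio of CXCL8 to CCL2 in MRC5_CoH196 lay apart from that in the other fibroblast groups. The log2 ratio of CXCL8 to CCL2 FPKM was -5.63 ± 0.32 (SD, n = 3) in MRC5_Mo and -5.63 ± 0.19 in MRC5_CoH69 (exact permutation p = 1, two-sided), groups that overlapped, which does not show that the ratio was unchanged. In MRC5_CoH196 it was -2.55 ± 0.04 (exact permutation p = 0.1, the smallest that 3 against 3 libraries allow). CXCL8 thus stood at 0.165 to 0.175 of the CCL2 level in MRC5_CoH196 and at 0.0157 to 0.0242 in the other 6 MRC5 libraries.

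**Figure D2:**
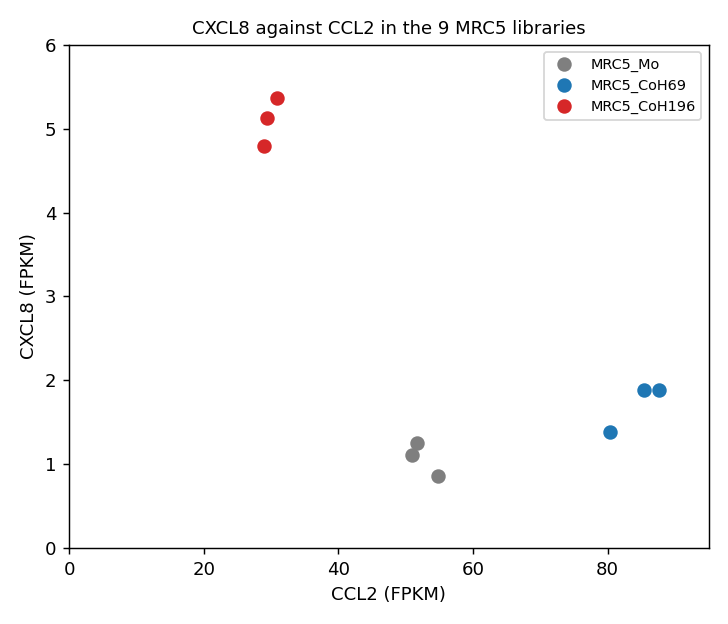
CXCL8 FPKM (y axis) against CCL2 FPKM (x axis) in the 9 MRC5 libraries, 3 per group. The MRC5_CoH196 points lie above and to the left, at 4.79 to 5.36 FPKM of CXCL8 and 29.02 to 30.95 of CCL2, and the MRC5_CoH69 points to the right, at 80.4 to 87.6 FPKM of CCL2.

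CXCL5, another ELR chemokine, had the group order of CCL2 and not that of CXCL8, at a low level. Its counts were 7, 4 and 7 in MRC5_Mo, 11, 12 and 13 in MRC5_CoH69 and 1, 4 and 3 in MRC5_CoH196. MRC5_CoH69 lay above both other groups without overlap, and those 2 groups overlapped at 4 counts. The change with either partner did not pass the test (log2 0.99, SE 0.40, adjusted p = 0.146 with H69, and -0.98, SE 0.56, adjusted p = 0.118 with H196). The difference between the partners did, at -1.97 (SE 0.48, adjusted p = 0.000785, edgeR), a level with H196 that was 0.254 of that with H69. On the log2(FPKM + 1) scale this difference was -0.29, under the fold limit. CXCL5 passed the count filter of the MRC5 model only through MRC5_CoH69, where it was highest, so its tests are given as a description.

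CXCL16, the membrane-bound member, did not pass the test in any co-culture comparison. Counts were 10, 19 and 21 in MRC5_Mo, 14, 14 and 16 in MRC5_CoH69 and 17, 14 and 22 in MRC5_CoH196, and all 3 groups overlapped. The log2 fold changes were -0.17 (SE 0.31, adjusted p = 0.815) with H69 and 0.24 (SE 0.30, adjusted p = 0.478) with H196, and 0.41 (SE 0.31, adjusted p = 0.232, edgeR) between the partners. In H196 the counts were 129, 163 and 139 alone and 157, 147 and 154 in co-culture, which overlapped (0.16, SE 0.12, adjusted p = 0.362). Its levels therefore fell into 2 blocks, 0.28 to 0.56 FPKM in the MRC5 libraries and 3.93 to 4.77 in those of H196, with no neighbours within a block called as different.

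CXCL2, CXCL1 and CXCL3, the GRO chemokines, differed widely in level in H196, while the promoter windows shown above were near copies. CXCL2 had 2389, 2845 and 2441 counts in H196_Mo and 2902, 2771 and 2915 in H196_Co. CXCL1 had 11, 10 and 8, then 8, 8 and 3, and CXCL3 had 7, 6 and 11, then 11, 6 and 10. On the per-length scale CXCL2 stood at 181 ± 13 FPKM in H196_Mo (SD, n = 3), CXCL1 at 0.643 ± 0.13 and CXCL3 at 0.597 ± 0.19. Reads can be split between such paralogs: of the 50-base stretches of the longest CXCL2 transcript, 5.13% also occurred in CXCL1 and 4.62% in CXCL3, and no stretch of 100 bases was shared.

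Co-culture changed CXCL2 in H196 little. FPKM was 181 ± 13 in H196_Mo and 201 ± 3.5 in H196_Co, and the groups did not overlap in FPKM. The log2 fold change of 0.23 (SE 0.07) passed the test at adjusted p = 0.0282 (edgeR) but not the fold limit of 0.58. It is a borderline pass: over the alternatives the adjusted p ran from 0.0178 to 0.165, with 0.0865 and 0.165 without H196_Mo replicates 1 and 3, and 0.0611 and 0.113 without H196_Co replicates 1 and 3. CXCL3 did not pass (0.24, SE 0.41, adjusted p = 0.722), and CXCL1 was not tested, with groups that overlapped at 8 counts.

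In fibroblasts CXCL2 was near the limit of detection. It had 5, 1 and 1 counts in MRC5_Mo, 2, 2 and 0 in MRC5_CoH69 and 13, 11 and 1 in MRC5_CoH196, and only replicates 1 and 2 of MRC5_CoH196 stood above the rest. Summed over libraries, MRC5_CoH196 had 3.53 times the CXCL2 of MRC5_Mo (95% exact interval for counting error 1.48 to 9.67). CXCL2 did not reach the count filter of the MRC5 model. Without the filter its log2 fold change was 1.93 (adjusted p = 0.0151, edgeR).

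H196 marker RNA differed between the same libraries. As a percent of the H196_Co level, CXCL2 was at 0.403%, 0.353% and 0.0310% in MRC5_CoH196 replicates 1, 2 and 3, against 0.406%, 0.428% and 0.0449% for the 15 H196 markers of at least 100 CPM. That marker percent corresponds to 13.1, 13.3 and 1.45 CXCL2 counts. The 94 markers of at least 20 CPM correspond to 22.1, 24.7 and 9.93 counts, more than the 13, 11 and 1 found, and to 3.57 to 4.06 counts in MRC5_Mo, so the sets differ in how closely CXCL2 follows them. Both sets were chosen for low levels in MRC5_Mo, and the part of H196 RNA in the CXCL2 counts was not tested. The 2 other GRO genes, low in H196, had 1, 3 and 0 counts (CXCL1) and 1, 2 and 4 counts (CXCL3) in MRC5_CoH196, within the ranges of 0 to 8 and 2 to 6 counts in the other MRC5 groups apart from the lowest CXCL3 library.

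**Figure D3:**
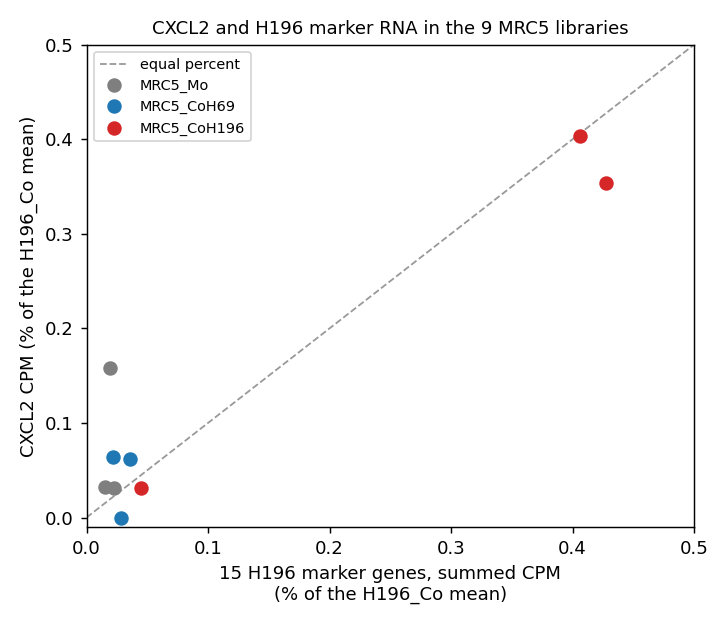
CXCL2 level (y axis) against the summed level of 15 H196 marker genes (x axis) in the 9 MRC5 libraries, both as a percent of the H196_Co mean, with a dashed line at equal percents. MRC5_CoH196 replicates 1 and 2 lie at 0.403% and 0.353% CXCL2 and replicate 3 lies among the other libraries at 0.0310%.

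CCL7 and CXCL6 were at the floor. CCL7, which sits beside CCL2 and acts on the same receptor, had 1, 1 and 0 counts in MRC5_Mo, 2, 0 and 2 in MRC5_CoH69 and 0 in each MRC5_CoH196 library. CXCL6 had at most 2 counts in any MRC5 library. CXCL1 and CXCL3 had at most 8 and 6 counts in MRC5. Changes in these 4 genes were not detectable at this depth.

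**Figure D4:**
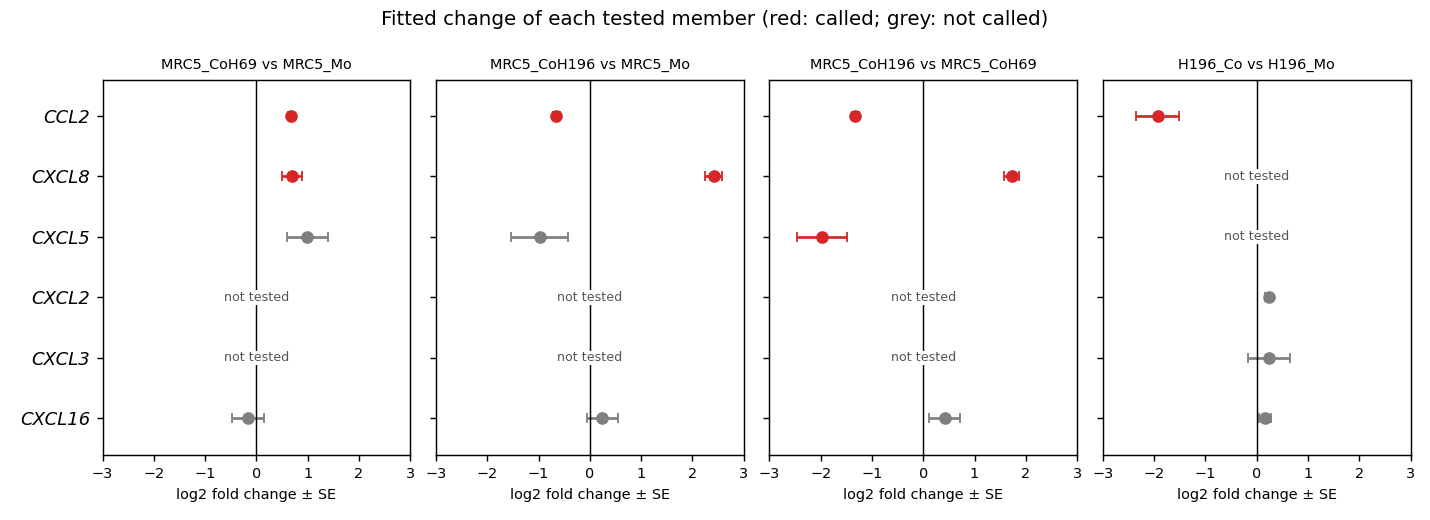
Fitted log2 fold change (x axes) with its standard error for the 6 members that could be tested in some comparison (rows), in 4 comparisons (panels), with called changes in red and the rest in grey. CCL2 lies to the right of 0 with H69 (0.68) and to the left with H196 (-0.65) and in H196_Co (-1.93), and CXCL8 lies at 0.69 and 2.41.

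A gene was called at an adjusted p under 0.05 with an absolute log2 fold change above 0.58. With H196, 2 of the 4 members tested in MRC5 were called, 1 higher (CXCL8) and 1 lower (CCL2), where 31.9% of the 12819 genes tested were called, 17.2% higher and 14.7% lower. With H69, 2 of 4 were called, both higher (CCL2 and CXCL8), where 0.554% of all genes were called, 0.421% higher and 0.133% lower. Between the partners 3 of 4 were called, CXCL8 higher and CCL2 and CXCL5 lower with H196, where 28.2% were called, 15.2% higher and 13.1% lower. In H196 1 of 4 was called, CCL2, where 3.86% of 12806 genes were called, 3.26% higher and 0.601% lower. CXCL5 passed the count filter only through MRC5_CoH69, and CCL2 in H196 only through H196_Mo, so these calls are given as a description. The 5 remaining members of the MRC5 table had too few counts to be tested, so these counts do not speak for all 9. The comparisons with MRC5_Mo share that group's 3 libraries.

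Between the lines grown alone, all 6 members tested in the model of 15 libraries were called, 3 higher and 3 lower in H196. Across 13912 genes 62.5% were called, 31.3% higher and 31.2% lower, so a call was common. CXCL2 and CXCL3 passed the count filter through H196 and CXCL5 and CXCL8 through MRC5, so the calls of these 4 are given as a description. CXCL2 had 7675 counts in H196_Mo and 7 in MRC5_Mo, a ratio of 1213 after scaling to library totals (95% exact interval 588 to 3017, counting error only). The fitted log2 difference was 9.73, and 10.86 without MRC5_Mo replicate 1, which held 5 of the 7 counts. CXCL16 was 6.97-fold higher in H196_Mo (log2 2.80, SE 0.19, adjusted p = 6.21e-14, edgeR), and CXCL3 was higher at 24 against 7 counts (adjusted p = 0.0183), a call absent in 5 of 15 alternatives. CCL2 was lower by a log2 difference of -5.20 (SE 0.13, adjusted p = 2.94e-24), CXCL8 as given above (adjusted p = 4.68e-11), and CXCL5 at 6 against 18 counts (adjusted p = 0.00663).

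The responses of MRC5 to H196 and of H196 to MRC5, measured in separate wells, were compared by an interaction term, in which 24.0% of genes were called, 11.8% higher and 12.1% lower in MRC5 than in H196. Of 6 members tested, 2 were called, both higher: CCL2 at 1.25 (SE 0.38, adjusted p = 0.0111), because it fell less in MRC5 than in H196, and CXCL2 at 1.69 (SE 0.68, adjusted p = 0.0400, edgeR). CXCL2 was below the count filter in MRC5 and entered this model only through its level in H196, and its term rests on the 13, 11 and 1 counts described above, so it is given as a description. For CXCL8 the term was 2.35 (SE 2.08, adjusted p = 0.383), with at most 1 count of CXCL8 in any H196 library.

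The receptor genes described here were too low to be tested in either line. CXCR1, CXCR2, CCR2, CCR3 and ACKR1 were listed in neither table, and CXCR6, CCR1 and ACKR2 had at most 4 counts in any library. Of the 5 genes around CXCL16 shedding, 0 were called in MRC5 with H196, with H69 or between the partners. In these comparisons 31.9%, 0.554% and 28.2% of all genes were called. In H196_Co 0 of the 4 tested were called, where 3.86% of all genes were. All 5 passed the adjusted p limit in MRC5 with H196 (8.67e-09 to 3.41e-05, edgeR) but not the fold limit. RHBDF1 was lower there (-0.37) and the others were higher. The sheddase ADAM10 had a log2 fold change of 0.44 (SE 0.05) and ADAM17 of 0.34 (SE 0.06) in MRC5_CoH196 against MRC5_Mo, both under the fold limit. Between the lines, ADAM10 was lower (-1.05) and ADAM17 higher (1.11) in H196_Mo. RHBDF2, which escorts ADAM17, was higher there (1.83), while RHBDF1 was lower (-2.72). TIMP3, a sheddase inhibitor, had 7130 to 7338 counts in MRC5_Mo and 0 in each H196_Mo library.

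Genes of NF-κB signalling changed in both directions with H196. Of 15 genes, 5 rose and 5 fell in MRC5_CoH196 against MRC5_Mo, where 17.2% of all genes were higher and 14.7% lower, with a median log2 fold change of 0.08 against -0.0030 over all genes. NFKBIZ, a nuclear co-factor of NF-κB, rose by 1.81 (SE 0.06), TNFAIP3, a feedback inhibitor, by 1.57 (SE 0.07), and the subunit gene RELA by 0.71 (SE 0.05). NFKB1, which encodes p105 and p50, fell by 1.16 (SE 0.06), and the inhibitor NFKBIA stood at -0.03 (SE 0.06, adjusted p = 0.675, edgeR). The same counts were found between the partners, where 15.2% of all genes were higher and 13.1% lower. There NFKBIZ stood at 1.64, TNFAIP3 at 1.17, RELA at 0.70 and NFKB1 at -1.27. With H69 0 of 15 were called, against 0.554% of all genes, and TNFAIP3 had a log2 fold change of 0.40 (SE 0.08, adjusted p = 0.00146).

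Several C/EBP and AP-1 genes rose in MRC5_CoH196 and in H196_Co. In MRC5_CoH196 4 of 9 rose and 1 fell against MRC5_Mo, where 17.2% of all genes were higher and 14.7% lower, with CEBPB at 1.25 (SE 0.05), JUN at 1.06 (SE 0.05) and FOS at -0.65 (SE 0.26, adjusted p = 0.0265, edgeR). CEBPD, at 0.51 (SE 0.08), stayed under the fold limit. In H196_Co 6 of 9 rose and 0 fell, where 3.26% of all genes were higher and 0.601% lower, with JUN first among them (adjusted p = 5.66e-09), CEBPB at 0.59 (SE 0.11) and CEBPD at 0.58 (SE 0.13), the latter at the edge of the fold limit. Against this, 1 of 15 NF-κB genes was called in H196_Co, TNIP1 at 0.74 (SE 0.07). With H69 0 of 9 were called, against 0.554% of all genes, with CEBPB at 0.12 (SE 0.05) and CEBPD at 0.29 (SE 0.08).

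The inducing cytokines ranged from IL1A, near 0, to LIF, at 1268 to 1420 counts in MRC5_Mo. IL6, often made beside CXCL8, rose in MRC5_CoH196 by 0.72 (SE 0.13, adjusted p = 3.54e-05, edgeR), from 80 counts in each MRC5_Mo library to between 99 and 137. IL1B had 0 to 4 counts in MRC5_Mo, 9 to 19 in MRC5_CoH69 and 5 to 8 in MRC5_CoH196, and IL1A had at most 4. Of 9 genes of this list that were tested, 3 rose and 3 fell with H196, beside 17.2% and 14.7% of all genes. With H69 0 were called, beside 0.554% of all genes, and in H196_Co 1 of 7 was called, beside 3.86%. The IL-1 receptor subunit IL1RAP rose by 1.31 (SE 0.10) in MRC5_CoH196 and by 0.81 (SE 0.09) in H196_Co. The other subunit, IL1R1, was called lower in MRC5_CoH196, at -0.72 (SE 0.06). In H196_Co IL1R1 stood at 0.21 (SE 0.10) and was not called. TLR3, a sensor of double-stranded RNA, had the largest called fall of the list in MRC5_CoH196 against MRC5_Mo, by 1.09 (SE 0.34). Its level was low, with 14 to 29 counts in MRC5_Mo and 7 to 11 in MRC5_CoH196. Against MRC5_CoH69, LIF was lower by -0.76 (SE 0.06).

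Of 7 genes that act on AU-rich transcripts, 1 rose with H196, ZFP36L1 at 1.25 (SE 0.05), a share near the 17.2% of all genes. With H69 and in H196_Co 0 were called, beside 0.554% and 3.86% of all genes. ZFP36, which encodes the decay factor tristetraprolin, stood at 0.30 (SE 0.07) in MRC5_CoH196 and 0.46 (SE 0.09) in H196_Co, and ZC3H12A, the RNase Regnase-1, at -0.01 (SE 0.12) and -0.42 (SE 0.13).

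**Figure D5:**
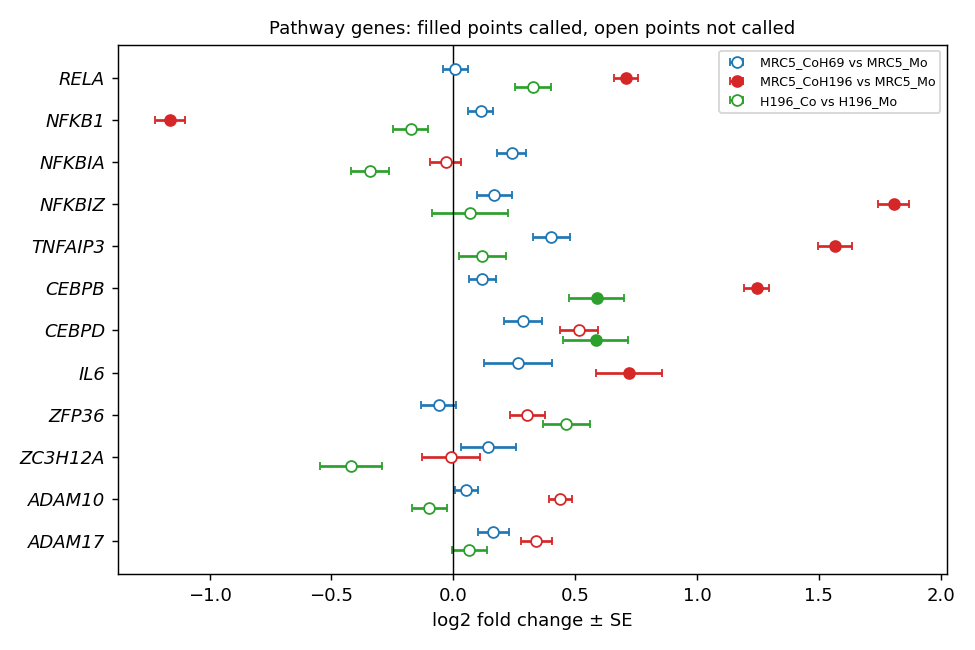
Log2 fold change with its standard error (x axis) of 12 pathway genes (rows) in 3 comparisons with the mono-cultures (colours), filled where called. In MRC5_CoH196, NFKBIZ (1.81), TNFAIP3 (1.57) and CEBPB (1.25) lie far to the right and NFKB1 (-1.16) to the left, while the H69 points lie between -0.06 and 0.40.

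Other chemokines gave few testable genes. Of 29 on the list, 18 were listed in the MRC5 table and 3 tested. CCL28, an epithelial chemokine, rose in MRC5_CoH196 from 1 to 3 counts to between 40 and 52, with 1 to 5 in MRC5_CoH69. CCL28 passed the count filter of the MRC5 model only through MRC5_CoH196, so this rise is given as a description. H196_Mo had 235 to 255 counts of CCL28 and H196_Co 248 to 313. CXCL12, the homeostatic fibroblast chemokine, rose by 0.67 (SE 0.06, adjusted p = 7.59e-10, edgeR) with H196 and fell by 0.61 (SE 0.07, adjusted p = 1.96e-06) with H69, the reverse of CCL2. CXCL10, an interferon-induced chemokine, fell by 2.33 with H196 (SE 0.66, adjusted p = 0.00277), from 6 to 11 counts to between 0 and 3. CXCL10 passed the count filter only through MRC5_CoH69, at 13 to 19 counts, so this fall is given as a description. In H196, 0 of 2 were called after co-culture, beside 3.86% of all genes, and XCL1 had 265 to 358 counts in H196_Mo against 0 in each MRC5_Mo library. CCL5 and CCL20 had at most 8.71 and 7 counts in any library.

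Genes with the most similar pattern were sought by the root mean square difference of centred log2 CPM over the 15 libraries, among 12862 genes. For CXCL8 they were FAM107B (0.33), IL21R (0.37) and CYGB (0.38), for CCL2 MAP1A (0.48), OXCT1 (0.49) and HNMT (0.49), and for CXCL16 MICB (0.24), BCL2L11 (0.25) and HJURP (0.25). The members themselves varied by 2.46, 2.90 and 1.38 on that scale, mostly between the lines, which all these genes share.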

How the data were processed

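Poly(A) RNA of MRC5 and H196 cells was sequenced (BGIseq-500). Cleaning used SOAPnuke, alignment HISAT (genome, GRCh38.p13) and Bowtie2 (gene sequences), and the submitters' notes also name RSEM 1.3.1. Expected counts, as deposited, were estimated per gene by the authors without normalization, and the deposited FPKM values were scaled by the authors for gene length and depth. Differential expression columns, made with DESeq2 per the file headers, were the authors' own comparisons and were not used, nor were 18 MRC5 and 12 H196 per-library columns of TPM or normalized counts.

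Expected counts were rounded and fitted with edgeR 4.0.16 (R 4.3.3, TMM factors, filterByExpr, quasi-likelihood test, Benjamini-Hochberg over all genes tested) in 9 MRC5 libraries, 6 H196 libraries, or all 15, where a gene absent from a table was taken as 0. Standard errors were derived from each log2 fold change and its F statistic. The scripts were tested on simulated data. Alternatives used DESeq2 1.42.0, limma 3.58.1 on log2(FPKM + 1) or log2(FPKM + 0.1), other filters, no fold limit, the replicate number as a block, and each library left out. From each gene list, the called genes with the largest rise and fall and preset core genes were named. Members and lists were chosen with earlier results of these data known. A receptor gene on these lists is not reported here.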

Additional observations from a re-analysis of the deposited data

Results flagged for a closer look

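Responses of the co-cultured lines differed for 2 chemokines in a test of the interaction. For CCL2 the log2 response in MRC5 minus that in H196 was 1.25 (SE 0.38, adjusted p = 0.0111, edgeR), with a fall of CCL2 in 3 of 3 libraries of each line against its mono-culture. Without H196_Co replicate 1 it was 0.96 (adjusted p = 0.0853), and over all alternatives the adjusted p ran from 0.00271 to 0.172.

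For CXCL2 the same difference was 1.69 (SE 0.68, adjusted p = 0.0400, edgeR), with adjusted p from 0.00169 to 0.376 over the alternatives. CXCL2 was below the count filter in MRC5 and was tested here only through its level in H196, so this value is a description. The MRC5 side rests on 5, 1 and 1 counts in MRC5_Mo and 13, 11 and 1 in MRC5_CoH196, higher in 2 of 3 libraries. The call was absent without MRC5_Mo replicate 2 (1.33) or 3 (1.35) and without MRC5_CoH196 replicate 1 (1.22) or 2 (1.44), and it was 2.82 without MRC5_Mo replicate 1. The H196 marker RNA of the same libraries was at 0.406%, 0.428% and 0.0449% of the H196_Co level with 15 markers and at 0.686%, 0.795% and 0.307% with 94, and its part was not tested.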

How the results depend on the processing

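Counts of called members kept within 1.5 times of the reported number in MRC5_CoH196 against MRC5_Mo, MRC5_CoH196 against MRC5_CoH69 and H196_Mo against MRC5_Mo. In MRC5_CoH69 against MRC5_Mo the count of 2 became 1 with the DESeq2 Wald test and with limma on log2(FPKM + 1), and 1 to 2 with a library left out, the lost gene being CXCL8. In H196_Co it became 2 without a fold limit (CXCL2 added), and DESeq2 gave no adjusted p for CCL2. The interaction count of 2 became 1 with limma on log2(FPKM + 1), where CXCL8 was called and CCL2 (0.21) and CXCL2 (0.23) were not, and 1 to 2 with a library left out. The H196 marker level in MRC5_CoH196, 0.596% on average, was 0.293% with the 100 CPM markers. The CXCL2 difference of 6 counts between MRC5_CoH196 and MRC5_Mo became -9.14 or -2.68 after the marker percent (20 or 100 CPM) was taken off, an alternative chosen after seeing the data.

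Changes of sign occurred only in changes that passed no test. CXCL16 in MRC5_CoH69 was 0.00175 with log2(FPKM + 1) and 0.0300 with log2(FPKM + 0.1), and -0.439 to 0.0291 with a library left out. In MRC5_CoH196 it was -0.0212 to 0.447. In the interaction CXCL16 was -0.00303 with log2(FPKM + 1), and with a library left out CXCL16 ran from -0.202 to 0.266, CXCL3 from -0.653 to 0.245 and CXCL5 from -0.685 to 0.675.

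Over all genes, calls in MRC5_CoH69 went from 71 to 40 (DESeq2), 18 (log2(FPKM + 1)) and 859 (no fold limit), and in H196_Co from 494 to 195 (log2(FPKM + 1)) and 2538. Without a fold limit they went from 4092 to 9522 in MRC5_CoH196, from 3618 to 9269 between the partners and from 3335 to 6924 in the interaction. Replicate numbers did not pair the libraries (correlations of same-numbered libraries -0.151 to 0.081), and with the replicate block 2, 2, 3, 1, 6 and 2 members were called in the 6 comparisons, as without it. The adjusted p of CXCL2 in H196_Co against H196_Mo was 0.0570 with the block and 0.113 and 0.115 on the 2 FPKM scales. At a few counts per library, depth left standard errors of 0.40 to 0.56 on the log2 scale for CXCL5 in MRC5.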
